A study of Homo sapiens with 6 samples.

Results

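The platelet-derived growth factor (PDGF) family was examined in LX-2 cells, an immortalised human line derived from hepatic stellate cells. Its members were taken by gene symbol, without regard to their values. They are the 4 ligand genes PDGFA, PDGFB, PDGFC and PDGFD and the 2 receptor genes PDGFRA and PDGFRB, so 6 of the 24789 genes and assembled loci with values. RNA was sequenced from cells given 50 nM of an siRNA against AEBP1 (labelled AEBP1 knockdown) and from cells given 50 nM of a scrambled siRNA (labelled WT), each for 48 hours and with 3 libraries per group. All libraries thus come from a single cell line exposed to an siRNA and a lipid reagent, and the labels do not say whether the 3 of a group were transfected separately. P-values therefore measure the spread between these libraries, which may be technical. The comparison asks what the siRNA against AEBP1, a gene for a collagen-binding matrix protein, does to the expression of this family.

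PDGFs are secreted as dimers and bind receptor tyrosine kinases at the cell surface. PDGF-A and PDGF-B chains are processed inside the cell, whereas PDGF-C and PDGF-D are released with an extra domain that proteases must cut off before the factor can act. PDGFRA is the receptor for the A, B and C chains, and PDGFRB mainly for B and D. In injured liver, stellate cells that turn into scar-forming myofibroblasts gain PDGFRB, and PDGF is among their strongest mitogens.

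The promoters of PDGFA, the ligand with the highest mean level per length, of PDGFRB, the more abundant receptor, and of PDGFRA, the scarcest member, are shown for reference. Windows of 300 bases, from 250 before to 50 after the annotated start of a gene, were taken from RefSeq (GRCh38.p14) by symbol, and 4 of the 6 members had at least 1 window, with 8 windows in all. The expression values were made on hg19, so the coordinates serve for these windows only. Capitals mark each GC box, which was searched as GGGCGG on both strands. They also mark each CCAAT box, searched as those letters on both strands, and each TATA box, searched as TATAA on both strands. Adjoining GC boxes form 1 run of capitals.

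PDGFA, chr7:519797-520096, minus strand, 1 of 4 windows and the one with a TATA box: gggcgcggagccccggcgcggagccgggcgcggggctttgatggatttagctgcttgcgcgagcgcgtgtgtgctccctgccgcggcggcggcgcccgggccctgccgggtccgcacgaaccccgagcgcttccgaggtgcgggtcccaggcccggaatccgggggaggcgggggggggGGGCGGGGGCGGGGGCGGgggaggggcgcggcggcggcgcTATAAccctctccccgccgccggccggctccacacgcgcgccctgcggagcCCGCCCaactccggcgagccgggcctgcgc
PDGFRB, chr5:150155796-150156095, minus strand, the only window: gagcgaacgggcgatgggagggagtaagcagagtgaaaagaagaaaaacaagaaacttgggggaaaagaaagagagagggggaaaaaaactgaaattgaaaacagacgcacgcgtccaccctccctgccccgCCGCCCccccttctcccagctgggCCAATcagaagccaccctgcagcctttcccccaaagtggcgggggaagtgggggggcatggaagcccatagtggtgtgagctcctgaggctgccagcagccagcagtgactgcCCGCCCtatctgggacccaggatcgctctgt
PDGFRA, chr4:54229043-54229342, plus strand, upstream start: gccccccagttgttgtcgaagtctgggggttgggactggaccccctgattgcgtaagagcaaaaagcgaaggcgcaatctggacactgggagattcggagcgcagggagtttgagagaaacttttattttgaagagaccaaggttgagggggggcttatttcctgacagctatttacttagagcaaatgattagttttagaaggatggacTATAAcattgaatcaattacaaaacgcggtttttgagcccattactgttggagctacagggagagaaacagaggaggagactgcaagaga
PDGFRA, chr4:54233710-54234009, plus strand, downstream start: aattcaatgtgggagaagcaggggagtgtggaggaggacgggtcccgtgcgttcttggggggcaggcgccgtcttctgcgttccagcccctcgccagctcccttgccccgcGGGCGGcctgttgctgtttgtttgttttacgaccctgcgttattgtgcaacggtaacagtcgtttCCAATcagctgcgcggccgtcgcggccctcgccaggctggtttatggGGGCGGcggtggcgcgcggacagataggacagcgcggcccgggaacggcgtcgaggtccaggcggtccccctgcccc

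The PDGFA window held 4 GC boxes, of which 3 adjoined each other with first bases at -71, -65 and -59 from the start (position 0), and a TATA box at -31. Its GC content was 81.7%, against a median of 58.7% over all 35116 windows. The PDGFRB window had 59.3% GC, a CCAAT box at -94 and GC boxes at -118 and 19. Of the PDGFRA windows, the upstream one had 47.0% GC and a TATA box at -40 but neither of the other motifs. The downstream one had 66.7% GC, GC boxes at -139 and -27 and a CCAAT box at -74. Over all windows, 45.0% held a GC box, 34.6% a CCAAT box and 20.4% a TATA box, so each of these matches is common and is a description of letters, not of a binding site.

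Total counts ran from 34433510 to 41600600 in the AEBP1 siRNA group and from 41330380 to 49432960 in the scrambled siRNA group. The targeted gene went against 2 of the 6 labels. AEBP1 was at 29.7, 27.7 and 48.3 CPM (counts scaled to a common library size) in AEBP1 siRNA 1, 2 and 3 by label, against 53.6, 48.7 and 25.1 CPM in scrambled siRNA 1, 2 and 3. The AEBP1 siRNA over scrambled log2 fold change was -0.27 (95% interval -0.97 to 0.43, edgeR adjusted p = 0.991), and without replicate 3 of both groups it was -0.83 (adjusted p = 0.378). Replicate 3 was left out because of AEBP1 itself, so that second value is a description. Directions below rest on the labels, and the members and lists are also given without replicate 3. The library labelled AEBP1 siRNA 1 also stood apart, scoring 65.9 on the first principal component where the others lay between -17.3 and -5.74.

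Of the 14 markers fixed for stellate cells, some were abundant, some low and some nearly absent. VIM, the mesenchymal intermediate filament, averaged 1204 CPM ± 119 under AEBP1 siRNA and 1131 CPM ± 159 under scrambled siRNA (SD, n = 3 each). THY1 was at 87.8 and 82.6 CPM, and COL3A1 at 27.4 and 31.1 CPM, in the same order. COL1A1 ranged from 1413 to 1617 CPM over the 6 libraries, TIMP1 from 114 to 161 CPM and TAGLN from 138 to 192 CPM. ACTA2 was low, from 3.20 to 5.72 CPM, as were COL1A2 (2.91 to 5.42), HAND2 (0.969 to 1.56) and RELN (0.239 to 0.654). The retinoid esterase LRAT had 0 counts in all 6 libraries, and desmin (DES) had at most 9. DCN and LUM had at most 5 and 8 counts. Among markers of other cells that can make PDGF, the platelet genes PF4, PPBP and GP9 had 0 counts in all libraries, and the endothelial genes PECAM1 and CDH5 had at most 11 and 5. The summed endothelial and platelet markers lay between 33.3 and 39.2 CPM in the AEBP1 siRNA group and 34.8 and 42.0 CPM in the scrambled group, most of it from TIE1 (19.5 and 20.5 CPM) and ROBO4 (9.29 and 11.6 CPM), with ITGA2B at 5.46 and 4.67 CPM. For hepatocyte, leukocyte and epithelial markers the summed ranges were 6.19 to 8.16, 22.2 to 25.9 and 222.5 to 290.9 CPM against 6.07 to 9.59, 19.2 to 24.5 and 215 to 238 CPM. These were led by SERPINA1 (6.41 and 6.86 CPM), CD68 (22.0 and 19.3 CPM) and KRT18 (177 and 157 CPM), with KRT8 at 36.2 and 32.9 CPM, while APOB, TTR, FGB and MS4A1 had 0 counts. In such bulk RNA, fewer cells of a type and less RNA per cell cannot be told apart.

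LX-2 cells expressed all 6 family members, but at very different levels. Per length, as FPKM (fragments scaled by transcript length and library size, as deposited), the mean over the 6 libraries was 9.35 ± 1.93 for PDGFA, 8.22 ± 0.826 for PDGFC, 5.26 ± 0.462 for PDGFRB, 1.56 ± 0.101 for PDGFB, 0.228 ± 0.0856 for PDGFD and 0.105 ± 0.0412 for PDGFRA (SD, n = 6). PDGFA, PDGFC and PDGFRB had mean levels above those of 56.6%, 53.8% and 44.7% of the 16250 genes tested. They thus lay near the middle of the tested genes, which leave out genes with too few counts. PDGFRA, by contrast, exceeded 2.28% of the genes tested and PDGFD 6.04%.

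The order of the levels was clear at 4 of the 5 steps. PDGFA and PDGFC did not differ beyond their spread. PDGFA was above PDGFC in 5 of 6 libraries, with a mean difference in log2(FPKM + 0.1) of 0.16 ± 0.27 (SD, n = 6, exact paired permutation p = 0.219, two-sided). Each later neighbour was lower in 6 of 6 libraries with ranges that did not meet: PDGFC exceeded PDGFRB by 1.56-fold, PDGFRB exceeded PDGFB by 3.37-fold, PDGFB exceeded PDGFD by 6.82-fold and PDGFD exceeded PDGFRA by 2.17-fold. For each of these 4 steps the exact paired permutation p was 0.0312, the smallest that 6 libraries allow, and 0.0391 after Benjamini-Hochberg adjustment over the 5 steps. The neighbours were set by the means of these same libraries, so the p-values describe the order and are no independent test of it. The order was the same by medians and within each group alone, again from the same libraries.

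**Figure D1:**
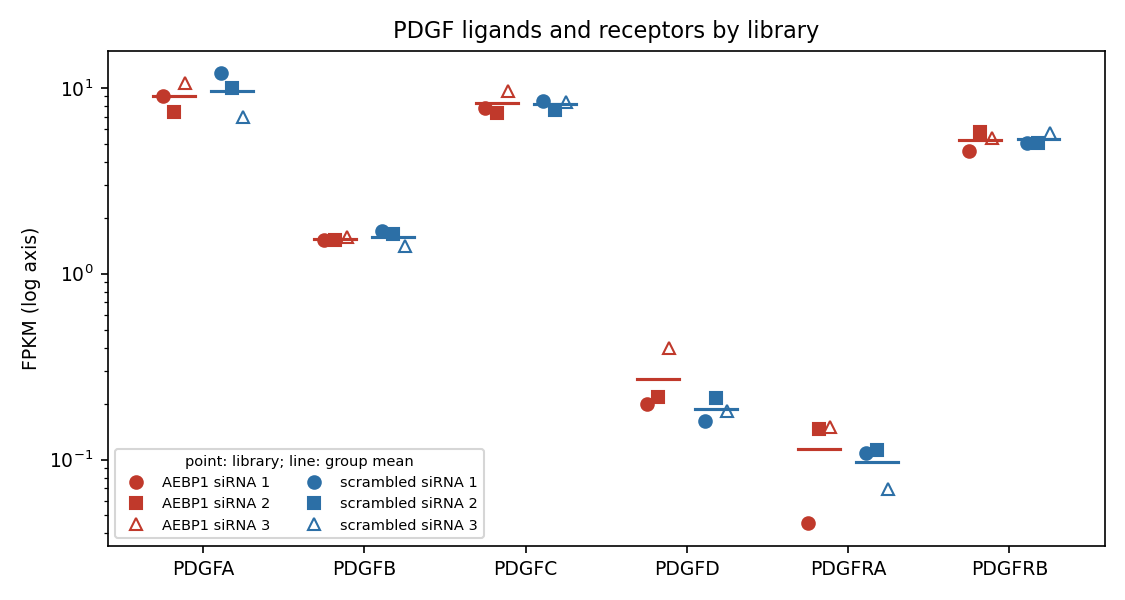
Deposited FPKM (log axis) of the 6 PDGF genes in each library, with AEBP1 siRNA libraries in red and scrambled siRNA libraries in blue, open triangles for replicate 3 and lines for group means. PDGFA and PDGFC lie near 9 FPKM, PDGFRB near 5, PDGFB near 1.5, and PDGFD and PDGFRA below 0.4, and the groups overlap for every gene.

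PDGFA, the A chain that signals through PDGFRA, varied the most among the well expressed members. Its level was 9.09, 7.41 and 10.6 FPKM in AEBP1 siRNA 1, 2 and 3, and 12.0, 10.0 and 6.97 FPKM in scrambled siRNA 1, 2 and 3. The corresponding counts were 805, 701 and 1133 against 1283, 1281 and 768. The lowest library was labelled scrambled siRNA 3 and the highest scrambled siRNA 1, so the scrambled group spanned the whole range and enclosed the other. Group means were 23.1 CPM ± 4.40 and 24.9 CPM ± 6.92 (SD, n = 3 each), with a log2 fold change of -0.11 (95% interval -0.63 to 0.41, edgeR adjusted p = 0.991).

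The highest PDGFA library exceeded the lowest by 1.78-fold in CPM, a larger ratio than that of 89.8% of the 11594 genes averaging 5 CPM or more, whose median was 1.35-fold. The standard deviation over the 6 libraries was 22.0% of the mean, where counting error alone at 995 counts would give 3.17%. The spread between libraries was thus larger than counting error, and the labelled groups overlapped.

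PDGFA followed the same library order as AEBP1 in the deposited FPKM values, a likeness noticed after the values were seen. In both genes scrambled siRNA 1 was highest, then AEBP1 siRNA 3, scrambled siRNA 2, AEBP1 siRNA 1, AEBP1 siRNA 2 and scrambled siRNA 3. In CPM the only change was that AEBP1 in scrambled siRNA 2 (48.7 CPM) passed AEBP1 siRNA 3 (48.3 CPM). PDGFB had exactly the AEBP1 order in CPM, over a narrower range (1.21-fold from lowest to highest, against 2.14-fold for AEBP1). In FPKM the PDGFB order differed, with scrambled siRNA 2 above AEBP1 siRNA 3 and AEBP1 siRNA 2 above AEBP1 siRNA 1. In CPM, PDGFB was at 5.90 in AEBP1 siRNA 1 and 5.88 in AEBP1 siRNA 2, with overlapping exact Poisson intervals for counting error. A likeness in order was thus not particular to PDGFA, and how many of all genes share it was not counted. Relative to its own mean over the libraries, PDGFA stood at 0.965, 0.776 and 1.14 in AEBP1 siRNA 1, 2 and 3 and at 1.30, 1.08 and 0.730 in scrambled siRNA 1, 2 and 3. AEBP1 stood at 0.764, 0.713 and 1.24 against 1.38, 1.25 and 0.646. AEBP1 values fell into separate clusters, so no correlation was computed. By the largest difference in any library between log2 CPM values centred on the mean of each gene, AEBP1 ranked 547 of 11063 genes in closeness to PDGFA, with a largest difference of 0.30. The closest were FBXL19, an F-box protein gene (0.064), and XBP1, a transcription factor of the unfolded protein response (0.071).

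**Figure D2:**
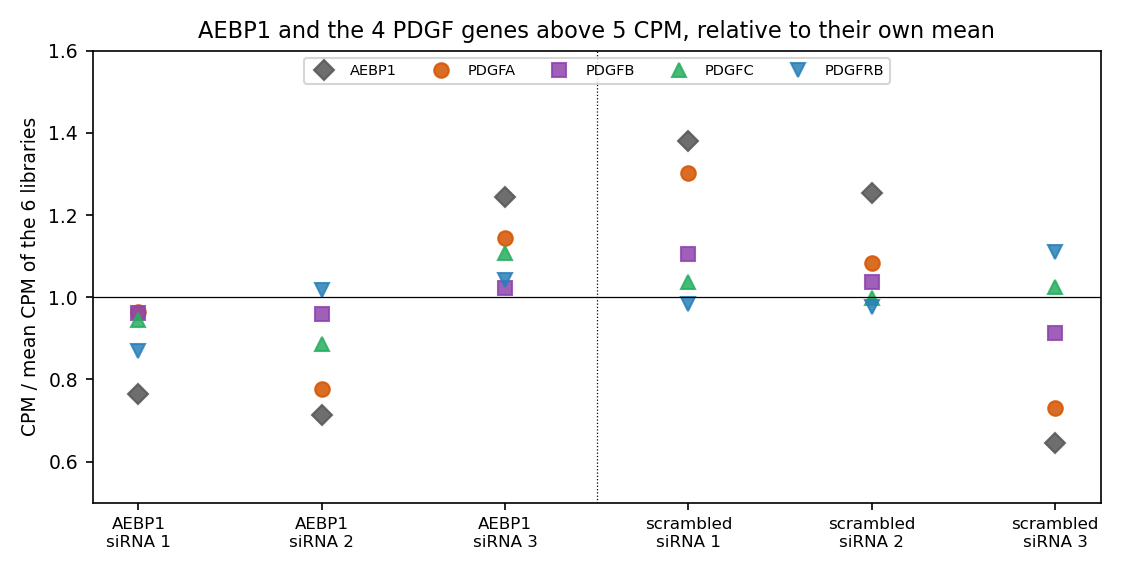
CPM of AEBP1 and of the 4 PDGF genes averaging 5 CPM or more, divided by the mean of the 6 libraries for each gene, with the AEBP1 siRNA libraries on the left and the scrambled siRNA libraries on the right. AEBP1, PDGFA and PDGFB lie above 1 in AEBP1 siRNA 3 and scrambled siRNA 1 and 2 and below 1 in the other libraries. PDGFB runs only from 0.912 to 1.10, and PDGFRB from 0.868 to 1.11.

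PDGFC, a ligand released in latent form, was not told apart from PDGFA in level per length and was steadier. It had 7.82, 7.34 and 9.63 FPKM in AEBP1 siRNA 1, 2 and 3, and 8.55, 7.63 and 8.38 FPKM in scrambled siRNA 1, 2 and 3. AEBP1 siRNA 3 was highest and AEBP1 siRNA 2 lowest, so here the scrambled group lay inside the range of the other. Means were 34.3 CPM ± 4.02 and 35.7 CPM ± 0.722 (SD, n = 3 each), with a log2 fold change of -0.058 (95% interval -0.31 to 0.20, edgeR adjusted p = 0.991). That interval corresponds to between 0.804 and 1.15 times the scrambled level. On log2(FPKM + 1) the estimate was 0.0059, so the sign depends on the unit. The genes closest to PDGFC over the libraries were ZSCAN32, a zinc finger gene (largest difference 0.058), and TMEM65 (0.066).

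PDGFB, the B chain that both receptors bind, was lower and nearly constant. Its counts were 205, 221 and 259 in AEBP1 siRNA 1, 2 and 3 and 278, 313 and 245 in scrambled siRNA 1, 2 and 3, or 5.90, 5.88 and 6.27 CPM against 6.77, 6.36 and 5.59 CPM. The standard deviation over the libraries was 6.89% of the mean, where counting error alone would give 6.28%. The spread between libraries was thus close to counting error. The log2 fold change was -0.053 (95% interval -0.40 to 0.30, edgeR adjusted p = 0.991), and the closest genes were CCNK, a cyclin of transcription (largest difference 0.033), and MBD4, a DNA repair glycosylase (0.037).

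PDGFD, the other latent ligand and one that binds PDGFRB, was detected at 31 to 76 counts per library. It had 32, 36 and 76 counts in AEBP1 siRNA 1, 2 and 3, and 31, 49 and 37 counts in scrambled siRNA 1, 2 and 3. In CPM, 5 of the libraries lay between 0.755 and 0.996, and AEBP1 siRNA 3 was at 1.84 with an exact Poisson interval of 1.45 to 2.30 for counting error. The upper bounds of the other 5 reached at most 1.32 CPM. The log2 fold change of 0.52 (95% interval -0.34 to 1.38, edgeR adjusted p = 0.991) rested on that library, since it was 0.12 without AEBP1 siRNA 3.

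PDGFRB, the receptor that marks activated stellate cells, was the dominant receptor transcript and differed little between libraries. It had 4.55, 5.76 and 5.35 FPKM in AEBP1 siRNA 1, 2 and 3, and 5.07, 5.08 and 5.75 FPKM in scrambled siRNA 1, 2 and 3. The lowest value belonged to AEBP1 siRNA 1, the library that stood apart. Scrambled siRNA 3, the lowest library for AEBP1 and PDGFA, was the highest for PDGFRB in CPM (36.9). The 95% interval of its log2 fold change of -0.068 ran from -0.33 to 0.19 (edgeR adjusted p = 0.991), or from 0.796 to 1.14 times the scrambled level. Closest to it over the libraries were the zinc transporter gene SLC39A9 (largest difference 0.039) and DCAF8, a gene for a ubiquitin ligase substrate receptor (0.040).

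PDGFRA, the other receptor, was on average the scarcest member, at 12 to 47 counts per library. Its counts were 12, 40 and 47 in AEBP1 siRNA 1, 2 and 3, and 34, 37 and 14 in scrambled siRNA 1, 2 and 3. Each group thus held 1 library far below its others. AEBP1 siRNA 1 was at 0.345 CPM (exact Poisson interval 0.178 to 0.603) and scrambled siRNA 3 at 0.319 CPM (0.175 to 0.536), while the other 4 ranged from 0.752 to 1.14 CPM. The groups differed by a log2 fold change of 0.43, with -0.86 and 1.71 as bounds of its 95% interval (edgeR adjusted p = 0.991), and without replicate 3 of both groups it was -0.16 (adjusted p = 0.984). The length implied by its counts, FPKM and library total was 4625 bases in scrambled siRNA 3 and between 6613 and 7670 bases in the others, so its FPKM and CPM do not keep the same proportion. For the other 5 members the longest implied length exceeded the shortest by at most 1.14-fold. GENCODE 29 lists 10 PDGFRA transcripts of 480 to 6576 bases, and the deposited data do not give their levels. Outside scrambled siRNA 3 the implied lengths exceed the longest of these, so the implied length is not a transcript length. At 14 counts in scrambled siRNA 3, no difference in transcripts can be read from it. AC058822.1, a protein-coding gene that overlaps PDGFRA on the same strand, had 0 to 6 counts per library. How reads were divided between these genes is uncertain.

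The shares within the family overlapped between the groups when all 6 libraries were used. PDGFRB made up 97.9% ± 0.930 of receptor FPKM in the AEBP1 siRNA libraries and 98.2% ± 0.547 in the scrambled libraries (SD, n = 3 each, exact permutation p = 0.6, two-sided). PDGFA made up 48.8%, 45.0% and 47.8% of ligand FPKM in AEBP1 siRNA 1, 2 and 3, and 53.5%, 51.4% and 41.1% in scrambled siRNA 1, 2 and 3 (exact permutation p = 0.8, two-sided). Without replicate 3 of both groups the PDGFA share was 5.55 percentage points lower under AEBP1 siRNA and its groups did not overlap (exact permutation p = 0.333, the smallest that 2 against 2 allow). Those libraries were left out for their AEBP1 values, whose order PDGFA shared in FPKM, so this is a description. How often groups fail to overlap at 2 against 2 over all genes was not counted. In scrambled siRNA 3 alone PDGFC, at 49.5%, took the larger share. PDGFB contributed between 7.08% and 9.19% and PDGFD between 0.720% and 1.79% over the 6 libraries. Summed ligand FPKM exceeded summed receptor FPKM by 4.05-, 2.79- and 4.04-fold in AEBP1 siRNA 1, 2 and 3 and by 4.32-, 3.76- and 2.91-fold in scrambled siRNA 1, 2 and 3 (exact permutation p = 1, two-sided). Without replicate 3 of both groups the difference in this ratio was -0.619, against -0.0351 with all libraries, and that in the PDGFRB share was 0.409 percentage points, against -0.232. All 3 tests with all libraries had an adjusted p of 1, and with 3 against 3 none could go below 0.1.

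**Figure D3:**
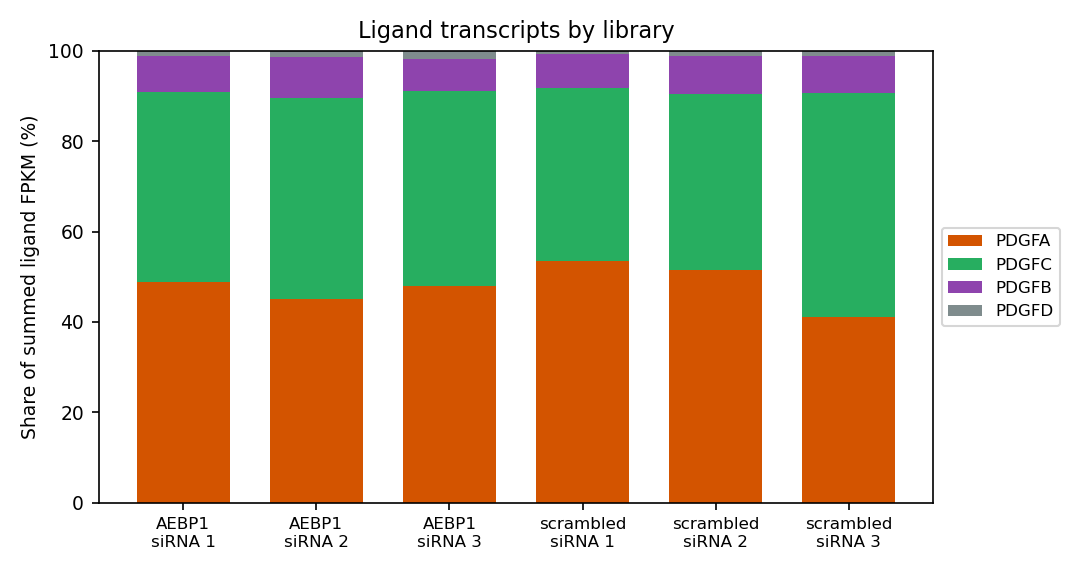
Stacked bars of the share of summed ligand FPKM (%) taken by PDGFA, PDGFC, PDGFB and PDGFD in each library, with AEBP1 siRNA libraries on the left. PDGFA and PDGFC fill about 90% of each bar, and scrambled siRNA 3 has the smallest PDGFA share, 41.1%.

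None of the 6 members passed the threshold between the labelled groups. By edgeR 0 of 6 had an adjusted p under 0.05 and 0 of 6 an unadjusted p under 0.05, where 0.00615% and 1.33% of the 16250 genes tested did. DESeq2 and limma-voom also called 0 of the 6, with backgrounds of 0.0369% and 0.0123%. The groups overlapped for all 6, where they did not for 5.93% of genes. Intervals were narrow for PDGFC and PDGFRB and wide for PDGFD and PDGFRA, whose upper bounds reached 2.61 and 3.28 times the scrambled level.

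Without replicate 3 of both groups, the libraries that went against their labels in AEBP1, 0 of 6 members were called and 0.00614% of 16285 genes were. PDGFA was then at -0.45 on the log2 scale (95% interval -0.92 to 0.0090, edgeR adjusted p = 0.967). PDGFA shared its library order in FPKM with AEBP1, the gene by which these libraries were left out, so this value is a description. PDGFB was at -0.16, PDGFC at -0.15, PDGFD at 0.099, PDGFRA at -0.16 and PDGFRB at -0.056. At an unadjusted p under 0.05 the counts were 0 of 6 and 4.7% of genes. A further fit, with AEBP1 siRNA 1 left out as well, had 1 library against 2 and assumes the lone library varies like the others. PDGFA was at -0.62 there, which is likewise a description. In that fit 0 of 6 members and 1.46% of 17050 genes were called, and PDGFRB was at 0.054 (adjusted p = 0.904). PDGFA was the 1 member with an unadjusted p under 0.05, where 12.2% of genes had one. No member was called under any other alternative either. Of all genes, 0.0138% were called with no filter beyond a nonzero total, 0.00862% among genes of at least 5 CPM (PDGFD and PDGFRA were not tested there), 0.0185% by limma on log2(FPKM + 0.1) and 0.00715% without assembled loci. Leaving out AEBP1 siRNA 1, 2 or 3 called 0.006%, 0.012% or 0.00602%, and leaving out scrambled siRNA 3 called 0.00603%.

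**Figure D4:**
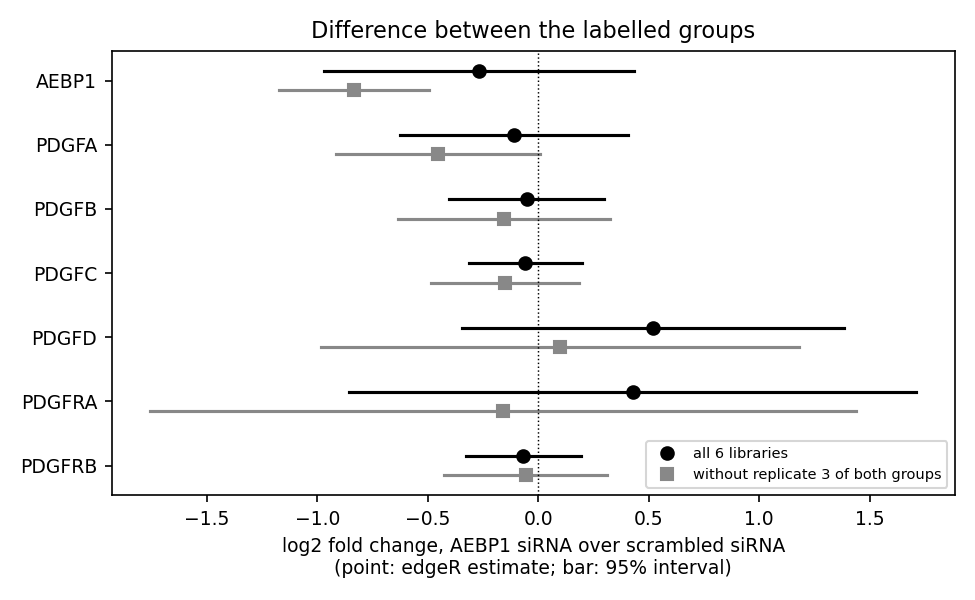
Log2 fold change of AEBP1 siRNA over scrambled siRNA with its 95% interval (edgeR) for AEBP1 and the 6 PDGF genes, with all 6 libraries (black circles) and without replicate 3 of both groups (grey squares). With all libraries every interval spans 0, and the intervals of PDGFD and PDGFRA are the widest.

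The other genes examined, 106 in 6 lists, held no calls, in a comparison that called 0.00615% of all genes. The lists cover the PDGF pathway, related receptors and ligands, and other mitogen receptors. Of 102 tested, 0 had an adjusted p under 0.05 by edgeR. FLT4, of the related receptors and ligands, was the 1 gene with an unadjusted p under 0.05, where 1.33% of all genes had one. Of their estimates, 45 were higher and 57 lower in the AEBP1 siRNA libraries. Over all genes tested the median log2 fold change was -0.0023, with 8031 estimates higher and 8219 lower. Without replicate 3 of both groups the list medians were -0.14 for ligand processing and co-receptors (3 higher, 8 lower), -0.11 for adaptors and effectors (10 higher, 23 lower) and -0.14 for negative regulators (6 higher, 12 lower). They were -0.014 for related receptors and ligands (4 higher, 5 lower) and -0.084 for other mitogen receptors (1 higher, 8 lower).

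Proteases that release the ligands and co-receptors were close to even. Of 11 tested, 0 were called, 4 estimates were higher and 7 lower, and the median was -0.031. LRP1, a lipoprotein receptor that associates with PDGFRB, was at 144 CPM ± 48.7 in the AEBP1 siRNA libraries and 177 CPM ± 15.4 in the scrambled libraries. NRP1, a co-receptor of several growth factors, was at 102 and 116 CPM (edgeR adjusted p = 0.991 for both). Both were lowest in AEBP1 siRNA 1, LRP1 at 88.9 CPM and NRP1 at 75.8 CPM. Without that library the log2 fold change of LRP1 was -0.050, against -0.30 with all libraries, and that of NRP1 was -0.011, against -0.19.

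Receptor adaptors and effectors had 0 of 33 called, with 11 estimates higher, 22 lower and a median of -0.060. Without AEBP1 siRNA 1 the split was 19 higher and 14 lower, with a median of 0.0085. The adaptor NCK1 was at 32.9 and 29.5 CPM in the AEBP1 siRNA and scrambled libraries, and phospholipase C gamma (PLCG1) at 372 and 376 CPM. Negative regulators had 0 of 18 called, 5 higher and 13 lower, with a median of -0.095, and without AEBP1 siRNA 1 this too changed sign, to 0.010. SPRED1, an inhibitor of the Ras pathway, was at 74.7 and 88.5 CPM, the phosphatase PTPN1 at 257 and 281 CPM and HGS, of endosomal sorting, at 221 and 207 CPM.

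Genes that growth factors induce leaned the other way without any call. Of 22 tested, 20 had higher and 2 lower estimates in the AEBP1 siRNA libraries, with a median of 0.076, and 0 were called. The immediate early gene IER2 was at 79.0 CPM ± 13.7 in the AEBP1 siRNA libraries and 64.4 CPM ± 6.98 in the scrambled libraries, which is 0.29 on the log2 scale (edgeR adjusted p = 0.991). DUSP5, a phosphatase of ERK, was at 24.1 and 19.8 CPM, and FOSL1, an AP-1 subunit, at 339 and 300.0 CPM. Without AEBP1 siRNA 1 the split was 16 to 6 with a median of 0.048, and without replicate 3 of both groups it was 16 to 6 with a median of 0.12. These genes share regulators and libraries, so their counts are a description.

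Related and other mitogen receptors were also uncalled. Of 9 genes of the related receptors and ligands, 4 had higher and 5 lower estimates, with a median of -0.033. VEGFA, the main angiogenic factor, was at 251 and 257 CPM in the AEBP1 siRNA and scrambled libraries, VEGFB at 57.4 and 49.2 CPM and PGF at 8.06 and 7.13 CPM. Of 9 other mitogen receptors, 1 was higher and 8 lower, with a median of -0.050, but without AEBP1 siRNA 1 the split was 8 higher and 1 lower. AXL, a receptor kinase for GAS6, was at 705 and 719 CPM, the collagen receptor DDR2 at 226 and 258 CPM and EGFR at 237 and 271 CPM.

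**Figure D5:**
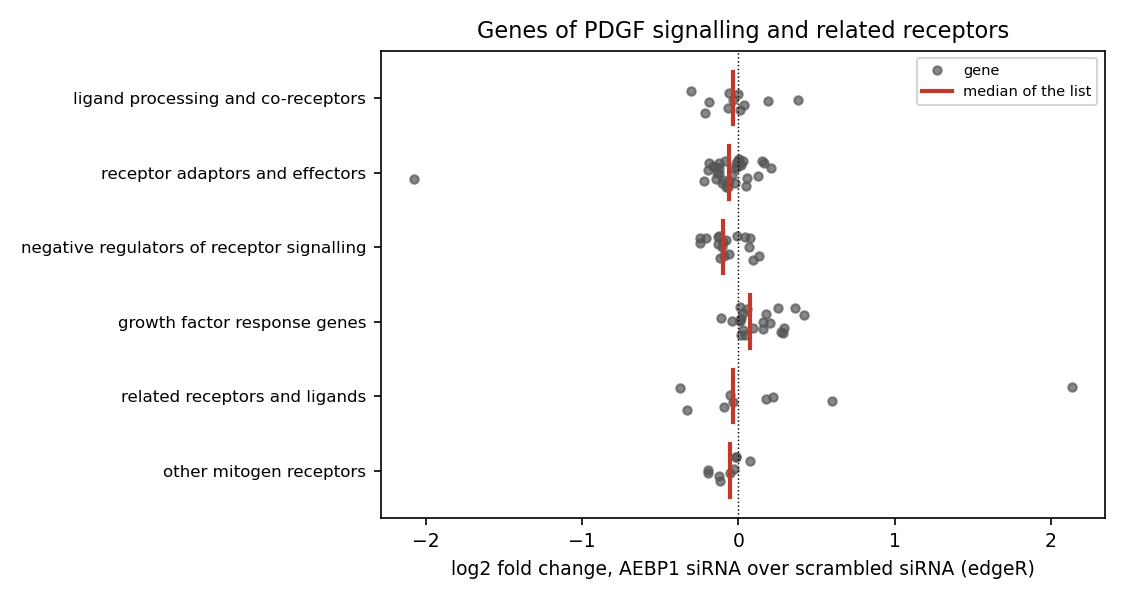
Log2 fold change of AEBP1 siRNA over scrambled siRNA (edgeR) for each tested gene of the 6 lists, with red bars at the list medians. Medians lie between -0.095 and 0.076, and the points furthest from 0 are PIK3R2 at -2.08 and FLT4 at 2.13.

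The outlying estimates of PIK3R2, FLT4 and PTPRJ were picked out after their values were seen. PIK3R2, a regulatory subunit of the PI3 kinase that activated PDGF receptors recruit, had 23, 946 and 26 counts in AEBP1 siRNA 1, 2 and 3, and 2318, 2703 and 10 counts in scrambled siRNA 1, 2 and 3. AC007192.1, a gene annotated across PIK3R2 and its neighbour IFI30, had 3359, 1481 and 3190 counts against 2, 0 and 2791. The 3 libraries lowest in PIK3R2 were the 3 highest in AC007192.1. Summed with IFI30, the locus was at 97.6, 77.2 and 92.2 CPM in AEBP1 siRNA 1, 2 and 3, and 92.2, 87.7 and 76.8 CPM in scrambled siRNA 1, 2 and 3 (exact permutation p = 0.6, two-sided). These genes overlap, so how reads were divided among them is uncertain. The log2 fold change of PIK3R2, -2.08 (SE 1.61, edgeR adjusted p = 0.991), is therefore uncertain too.

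PTPRJ, a receptor-type phosphatase that acts on PDGFRB, was at 36.3, 53.8 and 31.4 CPM in AEBP1 siRNA 1, 2 and 3, and 31.9, 32.8 and 53.4 CPM in scrambled siRNA 1, 2 and 3. AEBP1 siRNA 2 and scrambled siRNA 3, the lowest libraries for AEBP1 and PDGFA, were thus the highest for PTPRJ. Its log2 fold change was 0.041 with all libraries and 0.73 (edgeR adjusted p = 0.00762) in the fit of AEBP1 siRNA 2 against scrambled siRNA 1 and 2. PIK3R2 was the other pathway gene called in that fit, where 1.46% of genes were. FLT4, a receptor for VEGF-C, had 16, 12 and 28 counts in AEBP1 siRNA 1, 2 and 3, and 3, 12 and 0 counts in scrambled siRNA 1, 2 and 3 (edgeR adjusted p = 0.991). In CPM its groups did not overlap, which held for 5.93% of all genes.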

How the data were processed

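RNA of LX-2 cells was sequenced in 6 libraries, 3 per group, with groups taken from the labels. The authors deposited raw counts and FPKM per gene, per the file headers. Per the submitters' processing notes they used hg19. The aligner, counter, annotation and strand setting were not given in the sources used here. Without a stated strand setting, reads of overlapping genes cannot be told apart. Of the 24789 rows with values, 4815 were loci assembled by the authors, and 17 fragments of text were left out. The 27 symbols that a spreadsheet had turned into dates were restored by gene ID. Every pair of libraries differed in its counts by more than sampling noise (lowest chi-square over degrees of freedom 8.02).

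The deposited counts of all genes were filtered with filterByExpr, scaled by trimmed mean of M values and tested by quasi-likelihood in edgeR 4.0.16 (R 4.3.3). The model held the group alone. P-values were adjusted by Benjamini-Hochberg over the 16250 genes tested, and an adjusted p under 0.05 was a call. Standard errors were derived from the log2 fold change and the F statistic. Log2 CPM values used a prior count of 2. Levels were compared between genes by the deposited FPKM with a pseudocount of 0.1. Exact tests used SciPy 1.17.1. Poisson intervals cover counting error only, since how PCR copies were handled was not given in the sources used here. The implied length is the one at which the count and the library total give the deposited FPKM.

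The members, lists and tests were chosen with earlier results of these data known. The rule for named genes took AEBP1, all members, from each list the called genes or else the 2 of at least 5 CPM with the smallest p and the most abundant one, and the 2 genes closest to each member of at least 5 CPM. Some genes the rule took are not reported here, but they count in their lists. The alternatives, 18 in all, were 2 other scalings, 2 other filters, DESeq2 1.42.0, limma-voom (limma 3.58.1), limma on log2(FPKM + 1) and on log2(FPKM + 0.1), a replicate block, each library omitted, both replicates 3 omitted, these and AEBP1 siRNA 1 omitted, and assembled loci omitted. The filter at 5 CPM leaves PDGFD and PDGFRA out. The gene test was checked on simulated counts.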

Additional observations from a re-analysis of the deposited data

How the results depend on the processing

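All 6 members stayed uncalled under the 18 alternatives, except that the filter at 5 CPM did not test PDGFD and PDGFRA, and their order of levels was the same by medians and in each group alone. Against 1 gene called over the whole table, no filter beyond a nonzero total and limma on log2(FPKM + 0.1) gave 3 each, DESeq2 6, limma-voom 2 and the replicate block 2. Leaving out single libraries gave 0 to 2. AEBP1 siRNA 2 against scrambled siRNA 1 and 2 alone gave 249 genes, among them 2 of the pathway lists against 0, and AEBP1 was then at -0.88, with libraries left out for their AEBP1 values, so this is no test of AEBP1. The replicate numbers did not pair the libraries, with correlations of deviations of 0.096, -0.0078 and -0.10 for numbers 1, 2 and 3, and the block called 0 members, with PDGFA at -0.093.

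Signs of the small estimates were not stable. With 1 library left out at a time, log2 fold changes spanned -0.31 to 0.084 for PDGFA, -0.13 to 0.0094 for PDGFB, -0.16 to 0.0088 for PDGFC and -0.12 to 0.0090 for PDGFRB. The difference between groups, AEBP1 siRNA minus scrambled siRNA, ran from -5.24 to 0.956 percentage points for the PDGFA share of ligands, from -0.764 to 0.0937 for the PDGFRB share of receptors and from -0.411 to 0.383 for the ligand to receptor ratio. PDGFC was at 0.0059 on log2(FPKM + 1) and 0.0058 on log2(FPKM + 0.1). Without replicate 3 of both groups PDGFRA was at -0.16 and the PDGFRB share differed by 0.409 points, and in the fit of 1 library against 2 PDGFRB was at 0.054. The cause was not tested.

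Of the other genes named, the ranges without single libraries were -0.052 to 0.019 for AXL, -0.12 to 0.0017 for CCNK, -0.41 to 0.012 for COL3A1, -0.15 to 0.00023 for DCAF8, -0.30 to 0.0032 for DDR2, -0.34 to 0.050 for EGFR, -0.25 to 0.11 for FBXL19, -0.017 to 0.27 for KRT18, -0.075 to 0.033 for MBD4, -0.079 to 0.33 for PGF, -0.062 to 0.037 for PLCG1, -0.22 to 0.32 for PTPRJ, -0.31 to 0.17 for SERPINA1, -0.084 to 0.031 for SLC39A9, -0.14 to 0.015 for TIE1, -0.11 to 0.041 for VEGFA, -0.018 to 0.18 for VIM, -0.35 to 0.0038 for XBP1 and -0.091 to 0.065 for ZSCAN32. Without replicate 3 of both groups, ITGA2B was at -0.015, PLCG1 at 0.0089, VIM at -0.050 and ZSCAN32 at -0.077. In the fit of 1 library against 2, CD68 was at -0.067, DCAF8 at 0.022, DDR2 at 0.047, EGFR at 0.057, ITGA2B at -0.018, PLCG1 at 0.098, SLC39A9 at 0.096, VIM at -0.19 and ZSCAN32 at -0.097, and XBP1 was called at -0.61. Upper quartile scaling put PLCG1 at 0.0011. On log2(FPKM + 1) and log2(FPKM + 0.1), ZSCAN32 was at -0.10 and -0.13. The remaining values were 178 for results that answer a comparison and 618 for named genes. Fold changes, shares and the ratio among them kept their direction, and fold changes kept their side of the threshold. Counts of genes called and places in the order of levels were compared by size. The shares and the ratio could not cross 0.05, since their exact tests cannot go below 0.1. At 12 to 76 counts per library, counting error was 15.2% of the mean for PDGFD and 18.1% for PDGFRA, against a spread over libraries of 37.6% and 46.9%.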
